A study of Mus musculus with 24 samples.

Results

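Heterozygous loss of *Kat6a* was examined here in differentiating neural stem and progenitor cells (NSPCs), as the comparison of 4 *Kat6a*+/- with 4 *Kat6a*+/+ RNA-seq libraries. These 8 libraries were chosen by the genotype and culture condition in their labels and belong to a series of 24 libraries in 6 groups of 4. NSPCs came from the dorsal telencephalon, the part of the embryonic forebrain that forms the cerebral cortex, of C57BL/6 mouse embryos at E12.5 from heterozygous intercrosses. The null allele lacks exons and carries a premature stop in the catalytic domain in all cells of the animal, so that *Kat6a*+/- NSPCs keep 1 intact allele and *Kat6a*+/+ NSPCs keep both. Each library came from the NSPCs of a single embryo, expanded in neurosphere culture and frozen. The cells were then grown for 3 days on a coated surface in medium with 1% serum. In proliferating culture the study saw floating spheres of *Kat6a*+/+ NSPCs, whereas *Kat6a*+/- colonies were smaller and had a tendency to attach. Libraries of polyadenylated RNA were made with a strand-specific kit from 200 ng of RNA. Cell types were not separated, so that fewer cells of a type and less RNA per cell cannot be told apart.

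KAT6A is a histone acetyltransferase of the MYST family that works in a complex with a BRPF scaffold protein, an ING4 or ING5 reader protein and MEAF6, and it acetylates histone H3 at active genes. In the developing brain, NSPCs first divide as radial glia, then pass through intermediate progenitors that express *Eomes*, and finally form neurons. Later they form astrocytes and oligodendrocytes. In people, heterozygous pathogenic variants of *KAT6A* cause a syndrome with intellectual disability. The comparison therefore addressed which genes respond when 1 of the alleles is lost.

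The 8 libraries held 14836869 to 23692125 counts. Their total was lower in the *Kat6a*+/- group, at 14836869 to 17789874, than in 3 of the 4 *Kat6a*+/+ libraries. The *Kat6a*+/+ libraries came from litters 4113, 4364, 4633 and 4746 (replicates 1 to 4) and the *Kat6a*+/- libraries from litters 4633, 4746, 4809 and 4844, so that 2 litters were shared. Counts of Y-linked genes and of *Xist*, the RNA that marks an inactive X chromosome, read as male in *Kat6a*+/+ replicates 1, 3 and 4 and in *Kat6a*+/- replicate 2, and as female in the other 4 libraries. Sex was therefore uneven between the groups. In *Kat6a*+/+ replicate 1 these genes went against a proliferating library that carries the same embryo label, and in replicate 2 the embryo could not be matched to a proliferating library with certainty. Both are labelled *Kat6a*+/+. Results are therefore also given without these 2 libraries. The fit gave each library a weight for how closely it followed its group, and replicates 1 and 3 held 42% and 34.9% of the *Kat6a*+/+ weight, while *Kat6a*+/- replicate 1 held 50.2% of the weight of its group. Replicate 2 held 9.39% and *Kat6a*+/- replicate 2 held 13.7%.

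*Kat6a* itself, on chromosome 8 (mm39, 23349545 to 23433275), was measured at 290, 236, 256 and 281 CPM (counts relative to the scaled size of a library) in *Kat6a*+/+ replicates 1 to 4 and at 240, 227, 255 and 214 CPM in *Kat6a*+/- replicates 1 to 4. The means were 266 ± 24.4 and 234 ± 17.5 CPM (SD, n = 4 each), and the ranges overlapped. The difference was 11.9% of the *Kat6a*+/+ mean, with p = 0.114 in a two-sided exact permutation test, whose smallest possible value is 0.0286. In the fit across all genes the log2 fold-change was -0.20 (SE 0.09, limma FDR = 0.331). The deleted exons could not be separated from the rest of the gene in these whole-gene counts, so the values do not check the genotype. In *Kat6a*-/- NSPCs, fitted against the same *Kat6a*+/+ libraries, the log2 fold-change of *Kat6a* was -0.69. Its level there was 160, 250, 163 and 187 CPM in replicates 1 to 4, so that replicate 2 lay within the *Kat6a*+/+ range.

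Across 13339 protein-coding genes, no gene reached a false discovery rate (FDR) under 0.05 in *Kat6a*+/- vs. *Kat6a*+/+ differentiating NSPCs by limma-trend (0% of tested genes), and the smallest FDR was 0.098. At an unadjusted p under 0.05 there were 1926 genes (14.4%), of which 971 were higher (7.28%) and 955 lower (7.16%) in *Kat6a*+/- NSPCs. This number depended on the library weights: without them 472 genes had an unadjusted p under 0.05, 254 higher (1.9%) and 218 lower (1.63%), and none reached the FDR. The edgeR quasi-likelihood test also called 0 genes, with 485 at an unadjusted p under 0.05. DESeq2 called 8 genes (0.06%) and had 628 at an unadjusted p under 0.05. In the same fit, *Kat6a*-/- vs. *Kat6a*+/+ NSPCs had 7258 genes at FDR under 0.05 (54.4%). There *Kat6a*-/- replicate 3 held 69% of the weight of its group. In simulated counts of the same group sizes and depths, 26.9% of 1.5-fold, 70.1% of 2-fold and 89.2% of 4-fold changes were called. Modest changes could therefore have been missed. The simulated libraries had no differences of sex, litter or quality, so these rates do not carry over to the real libraries. The median absolute log2 fold-change of all genes was 0.12.

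The count of genes at FDR under 0.05 turned on single libraries. It was 146 without *Kat6a*+/+ replicate 2 and 301 without *Kat6a*+/- replicate 3, with 90 genes shared between both, which is 61.6% of the former and 29.9% of the latter. It was 1 without *Kat6a*+/- replicate 2 and 0 when any other of the 12 libraries of the fit was left out. Without *Kat6a*+/+ replicates 1 and 2 together it was 4 genes, namely *Slf2*, *Sfmbt2*, *Csf1* and *Dennd2b*, which were named after their values were seen. The plot of gene numbers by setting shows these changes.

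**Figure D1:**
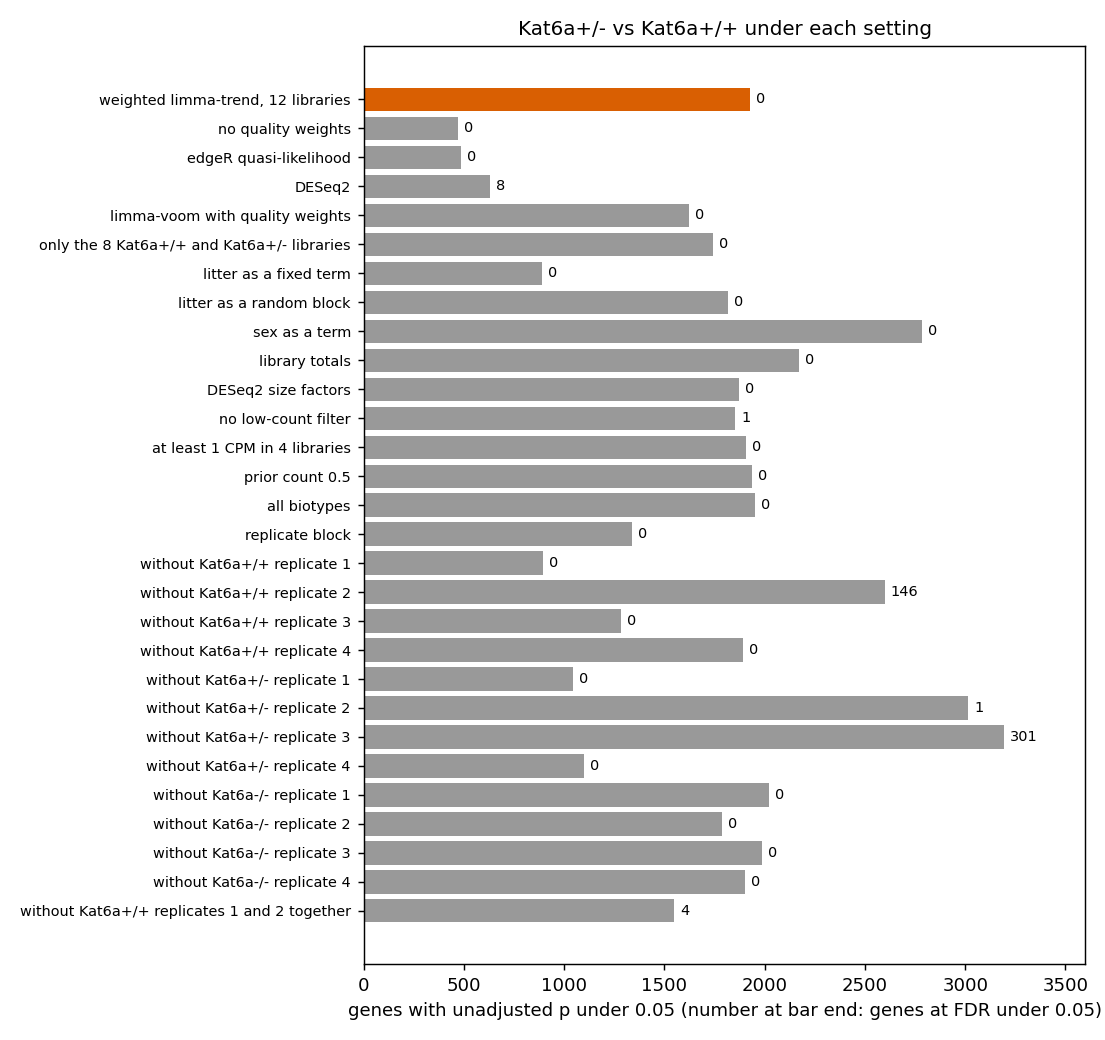
Bars give the number of genes with an unadjusted p under 0.05 in *Kat6a*+/- vs. *Kat6a*+/+ differentiating NSPCs under each setting, and the number at the end of a bar gives the genes at FDR under 0.05. The orange bar is the fit reported in the text (1926 genes, none at FDR under 0.05), and the bars for fits without quality weights (472) and without *Kat6a*+/- replicate 3 (3192) mark the lowest and highest values.

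The 12 genes with the smallest p-values, 6 in each direction, had FDR between 0.098 and 0.104, and each had the same direction under every setting that was tried. All 12 passed FDR 0.05 without *Kat6a*+/+ replicate 2, and all 12 passed it without *Kat6a*+/- replicate 3. In 10 of them, all but *Csf1* and *Clcf1*, the ranges of the 4 *Kat6a*+/- and 4 *Kat6a*+/+ libraries did not overlap, a pattern found in 187 genes that were higher (1.4%) and 194 that were lower (1.45%) among all those tested. Because the genes were picked by their p-values, these separations describe the genes and are no further test of them. Their upstream sequences are shown for 4 of them, *Sfmbt2* and *Dysf* as the leading genes that were higher and *Pnma1* and *Shisa2* as genes that were lower, since CG dinucleotides at a start site are a feature of many broadly expressed promoters. Each is the 250 bases before the RefSeq start site on the strand of the gene (GRCm38.p6), with CG in capitals.
Sfmbt2 (chr2:10370201-10370450, plus strand): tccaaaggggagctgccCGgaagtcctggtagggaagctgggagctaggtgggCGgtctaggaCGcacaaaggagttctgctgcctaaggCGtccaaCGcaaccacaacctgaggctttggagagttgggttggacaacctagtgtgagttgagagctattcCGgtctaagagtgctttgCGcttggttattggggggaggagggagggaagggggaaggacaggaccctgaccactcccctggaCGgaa
Dysf (chr6:84008348-84008597, plus strand): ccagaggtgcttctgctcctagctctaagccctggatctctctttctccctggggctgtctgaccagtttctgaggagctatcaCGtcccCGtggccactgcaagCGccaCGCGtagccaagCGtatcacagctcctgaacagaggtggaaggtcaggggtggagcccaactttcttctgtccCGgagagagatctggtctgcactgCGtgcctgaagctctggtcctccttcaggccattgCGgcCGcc
Pnma1 (chr12:84148490-84148739, minus strand): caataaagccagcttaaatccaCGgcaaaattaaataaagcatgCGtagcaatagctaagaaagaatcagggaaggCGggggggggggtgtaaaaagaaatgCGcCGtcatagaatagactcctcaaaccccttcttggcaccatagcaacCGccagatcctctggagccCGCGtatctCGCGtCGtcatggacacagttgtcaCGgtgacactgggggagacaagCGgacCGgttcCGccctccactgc
Shisa2 (chr14:59625031-59625280, plus strand): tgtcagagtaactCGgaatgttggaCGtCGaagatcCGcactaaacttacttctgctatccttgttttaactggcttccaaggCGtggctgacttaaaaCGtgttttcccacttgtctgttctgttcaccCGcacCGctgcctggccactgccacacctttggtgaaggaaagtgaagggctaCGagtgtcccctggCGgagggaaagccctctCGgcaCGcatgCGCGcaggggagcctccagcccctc
These windows held 8, 10, 15 and 14 CG dinucleotides. Over the 10700 of 13339 tested genes with an entry the median was 16, and 99.2% held at least 1. The median was 15 over 784 of the 971 genes that were higher at an unadjusted p under 0.05, and 18 over 784 of the 955 that were lower.

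*Sfmbt2*, on chromosome 2, encodes a protein with MBT repeats of the Polycomb family and is imprinted in the extraembryonic lineages. Its level was 0.548, 0.487, 0.337 and 0.25 CPM in *Kat6a*+/+ replicates 1 to 4 and 1.25, 1.59, 1.82 and 1.2 CPM in *Kat6a*+/- replicates 1 to 4. Every *Kat6a*+/- library lay above every *Kat6a*+/+ library, although the gene was near the limit of detection, with 6 to 33 reads per library. The log2 fold-change was 1.50 (SE 0.24, limma FDR = 0.098), it was 1.63 without weights, and DESeq2 gave 1.90 (SE 0.36, FDR = 0.00062). In the *Kat6a*-/- libraries the level was 4.34 to 5.55 CPM.

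*Dysf*, which encodes the membrane repair protein dysferlin, was measured at 17.6, 20, 12.1 and 13.7 CPM in *Kat6a*+/+ and at 44.5, 58.6, 26.1 and 25.7 CPM in *Kat6a*+/- NSPCs. The groups did not overlap, and *Kat6a*+/- replicates 1 and 2 were higher than replicates 3 and 4. This was a log2 fold-change of 1.32 (SE 0.21, limma FDR = 0.098; DESeq2 FDR = 0.005). *Kat6a*-/- libraries held 92.8 to 122 CPM.

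Signalling molecules were among the genes with higher levels. *Csf1*, the growth factor of microglia and macrophages, was at 356, 644, 349 and 393 CPM in *Kat6a*+/+ and at 780, 748, 594 and 593 CPM in *Kat6a*+/- NSPCs. *Kat6a*+/+ replicate 2 was within the *Kat6a*+/- range and the other 3 were below it. In the limma fit the log2 fold-change was 0.89 (SE 0.15, limma FDR = 0.098). *Clcf1*, a cytokine of the ciliary neurotrophic factor family, was at 5.31, 16, 6.07 and 4 CPM in *Kat6a*+/+ and at 28.2, 28.6, 10.1 and 18.1 CPM in *Kat6a*+/- NSPCs. *Kat6a*+/- replicate 3 was below *Kat6a*+/+ replicate 2, so the groups overlapped, and the other values were apart. The fit gave a log2 fold-change of 1.84 (SE 0.33, limma FDR = 0.104).

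*Arl4c*, a small GTPase that acts on the cytoskeleton, was at 104, 152, 89.6 and 108 CPM in *Kat6a*+/+ and at 168, 235, 172 and 178 CPM in *Kat6a*+/- NSPCs. The groups were apart, and the highest value of each group was in replicate 2. *Itprid2*, whose product has a domain that binds inositol trisphosphate receptors, was at 133, 184, 139 and 132 CPM and at 200, 209, 220 and 292 CPM in the same order. The log2 fold-changes were 0.80 (SE 0.13) and 0.65 (SE 0.11), both with limma FDR = 0.098.

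Among genes with lower levels, *Rundc3a*, whose product is enriched in neurons and binds Rap2 GTPase, had the smallest p-value of all (chromosome 11, mm39, 102283896 to 102293398). It was at 73.3, 55.7, 71.6 and 70.8 CPM in *Kat6a*+/+ and at 48, 49.5, 52.8 and 39.1 CPM in *Kat6a*+/- NSPCs. Every *Kat6a*+/- library was below every *Kat6a*+/+ library, with *Kat6a*+/+ replicate 2 nearest to them. The log2 fold-change was -0.57 (SE 0.09, limma FDR = 0.098; DESeq2 FDR = 0.0484).

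*Pnma1*, a paraneoplastic antigen gene expressed in neurons, was at 3.07, 2.65, 2.26 and 2.21 CPM in *Kat6a*+/+ and at 1.07, 0.795, 0.827 and 1.07 CPM in *Kat6a*+/- NSPCs, which was 12 to 56 reads per library. The 4 *Kat6a*+/- values were close to each other and far from the *Kat6a*+/+ values. This was a log2 fold-change of -1.31 (SE 0.21, limma FDR = 0.098; DESeq2 FDR = 0.0043). *Kat6a*-/- libraries held 0.834 to 0.995 CPM, a range within that of the *Kat6a*+/- libraries.

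*Shisa2*, an inhibitor of WNT and FGF receptor maturation, was at 7.4, 7.46, 8.38 and 5.5 CPM in *Kat6a*+/+ and at 2.92, 3.51, 3.03 and 2.27 CPM in *Kat6a*+/- NSPCs. The groups were apart. In the limma fit the log2 fold-change was -1.33 (SE 0.21, limma FDR = 0.098), and *Kat6a*-/- libraries varied from 2.41 to 5.59 CPM, with a log2 fold-change of -0.56.

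*Tnnt1*, which encodes slow skeletal troponin T, was at 13.3, 17.2, 15 and 15.3 CPM in *Kat6a*+/+ and at 9.07, 6.63, 5.68 and 9.42 CPM in *Kat6a*+/- NSPCs. *N4bp3*, a regulator of axon and dendrite branching, was at 14, 10.4, 16.1 and 14.2 CPM and at 6.92, 9.61, 10.4 and 8.22 CPM. *Peli1*, a ubiquitin ligase of innate immune signalling, was at 74.6, 62.8, 71.5 and 73.6 CPM and at 52.5, 55.2, 56.4 and 61.4 CPM. All 3 genes were lower in each *Kat6a*+/- library than in any *Kat6a*+/+ library, although *Kat6a*+/+ replicate 2 of *N4bp3* lay just above the highest *Kat6a*+/- library. The log2 fold-changes were -0.85 (SE 0.15), -0.82 (SE 0.15) and -0.39 (SE 0.07), and the limma FDR was 0.104, 0.104 and 0.098.

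**Figure D2:**
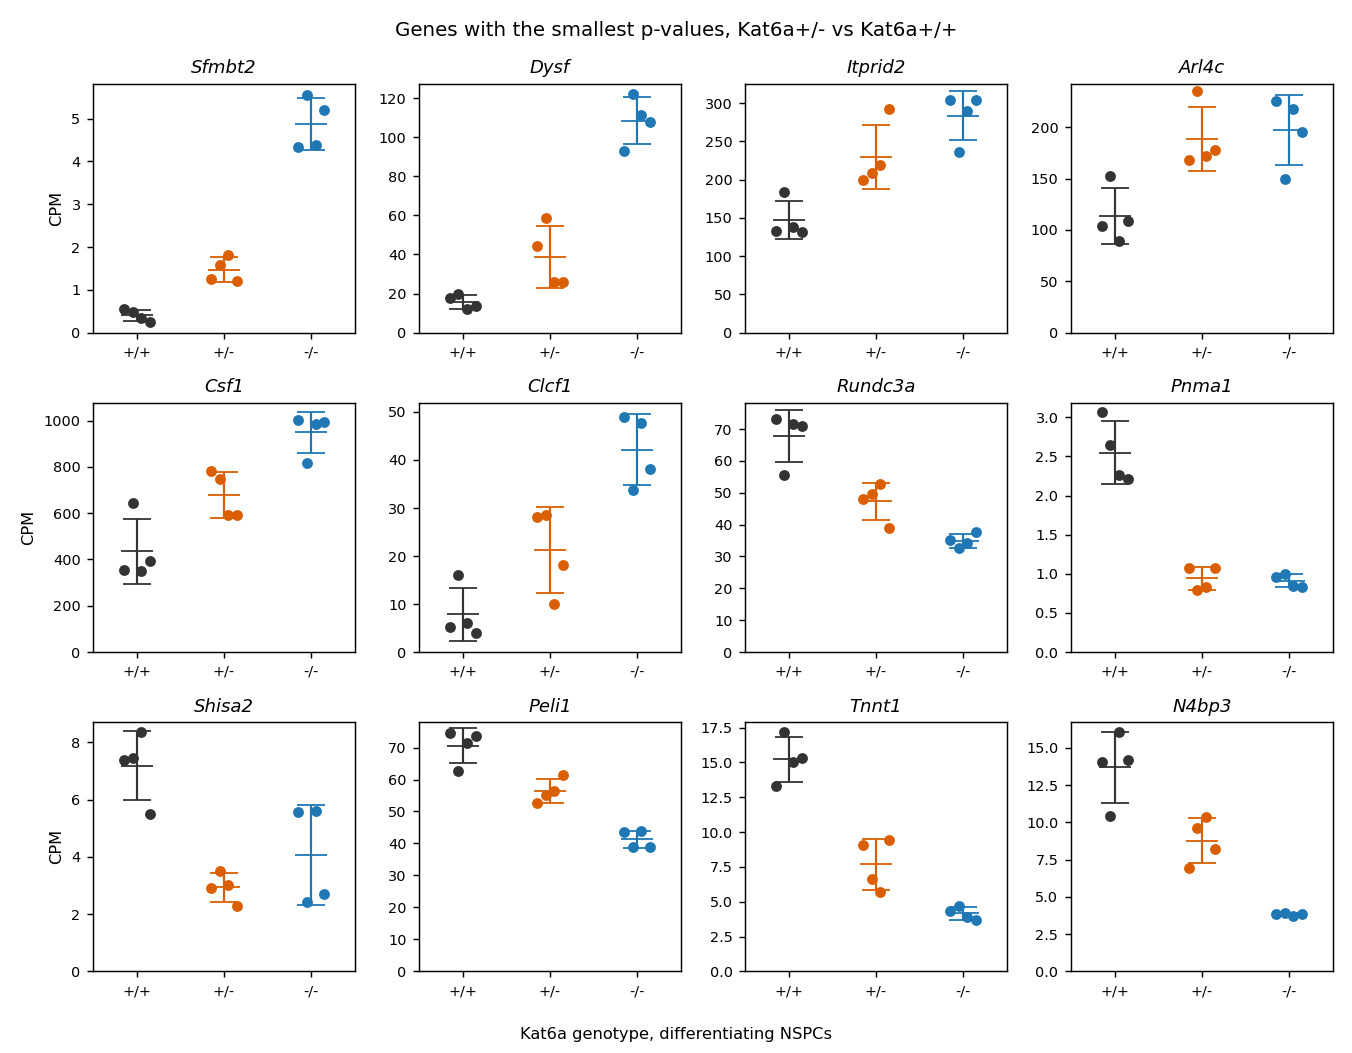
Level in CPM (linear axis from 0) of the 12 genes with the smallest p-values in *Kat6a*+/+, *Kat6a*+/- and *Kat6a*-/- differentiating NSPCs, with 1 point per library (replicates 1 to 4 from left to right) and the mean ± SD (n = 4). *Kat6a*+/- and *Kat6a*+/+ libraries were apart in 10 of them, and in *Csf1* (644 CPM) and *Clcf1* (16 CPM) *Kat6a*+/+ replicate 2 was inside the *Kat6a*+/- range.

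DESeq2 called 8 genes at FDR under 0.05, all of which had an unadjusted p under 0.05 in the limma fit. Beside *Sfmbt2*, *Dysf*, *Pnma1*, *Rundc3a* and *Tnnt1* these were *Csdc2*, an RNA-binding protein gene of the brain, *Ndn*, the imprinted gene of necdin, and *Pcdhgc4*, a clustered protocadherin of the gamma cluster. Their DESeq2 log2 fold-changes were 0.91 (SE 0.19, FDR = 0.00715), 0.68 (SE 0.16, FDR = 0.049) and 0.71 (SE 0.17, FDR = 0.0484). *Ndn* was at 51.3, 54.6, 72.9 and 58.9 CPM in *Kat6a*+/+ and at 82.7, 121, 100 and 75.2 CPM in *Kat6a*+/- NSPCs, and *Pcdhgc4* at 5.21, 5.95, 5.06 and 3.92 CPM and at 8.12, 7.56, 7.83 and 9.09 CPM. Both were higher in each *Kat6a*+/- library. Gamma protocadherins share their constant exons, so reads may have been split among them.

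Among genes with separate groups and a mean log2 CPM above 1, the largest estimates of those reported here were found for *Thbs2*, *Gpat3* and *Dysf* in the upward direction and *Shisa2*, *Pth1r*, *Irx3* and *Tnnt1* in the downward direction. *Thbs2*, the matrix glycoprotein thrombospondin 2, was at 2.19, 3.95, 2.26 and 1 CPM in *Kat6a*+/+ and at 5.19, 14.1, 9.1 and 11 CPM in *Kat6a*+/- NSPCs. The fit gave a log2 fold-change of 1.78 (SE 0.39, limma FDR = 0.162). *Pth1r*, the parathyroid hormone receptor, was at 13.7, 10, 15.4 and 10.2 CPM and at 6.63, 8.68, 6.06 and 3.34 CPM, with a log2 fold-change of -1.13 (SE 0.21, limma FDR = 0.116). *Gpat3* (glycerolipid synthesis) and *Irx3* (an Iroquois homeodomain factor) had log2 fold-changes of 1.40 and -0.88. *Irx3* had an opposite estimate of 0.90 in *Kat6a*-/- NSPCs.

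The fit with litter as a fixed term rested on litters 4633 and 4746, which each held 1 library of both genotypes. It called 0 genes, with 891 at an unadjusted p under 0.05. In both litters the 12 genes above differed in the direction of the fit. They had been picked from a fit that held these same libraries, so this is no further test of them. *Rundc3a* differed by -0.57 and -0.52 on the log2 scale, and *Peli1* by -0.44 and -0.42, in litters 4633 and 4746. *Clcf1* differed by 2.20 and 2.80. The plot of differences within litters also shows genes whose litters went opposite ways, such as the proliferation marker *Mki67* with -0.35 and 0.84.

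**Figure D3:**
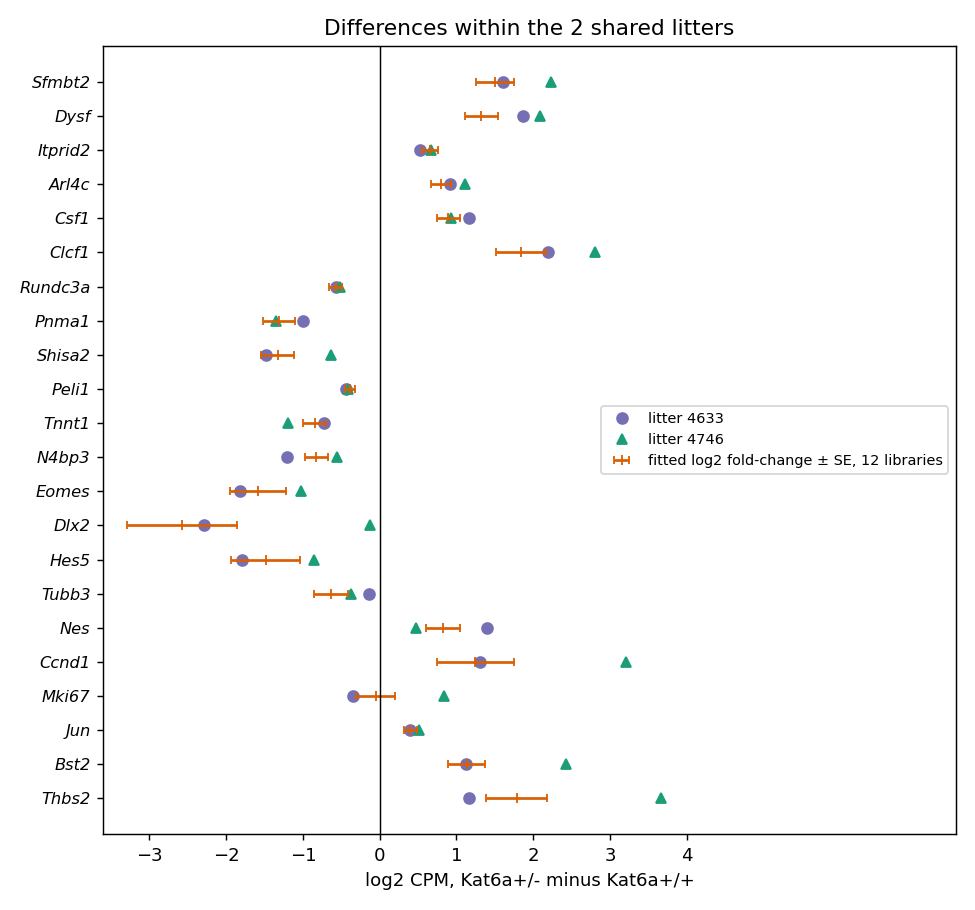
Difference in log2 CPM, *Kat6a*+/- minus *Kat6a*+/+, in litter 4633 (circles) and litter 4746 (triangles), beside the fitted log2 fold-change ± SE over the 12 libraries of the fit (orange). The upper 12 genes, *Sfmbt2* to *N4bp3*, lay on 1 side of 0 in both litters, while *Mki67* was at -0.35 and 0.84. These 12 genes were picked from a fit that held the same libraries.

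Genes of neurogenesis had mostly lower estimates. Of 15 tested proneural and intermediate progenitor genes, 0 were higher and 7 lower at an unadjusted p under 0.05, beside 7.16% lower among all genes, 12 estimates were below 0, and the median log2 fold-change was -0.42, beside -0.01 for all genes. *Eomes*, the transcription factor of intermediate progenitors, was at 24.8, 10.2, 26.6 and 17.7 CPM in *Kat6a*+/+ and at 7.46, 8.68, 15.4 and 2.74 CPM in *Kat6a*+/- NSPCs. *Kat6a*+/+ replicate 2 was below *Kat6a*+/- replicate 3, and the other *Kat6a*+/+ libraries were above all *Kat6a*+/- libraries. The log2 fold-change was -1.59 (SE 0.37, limma FDR = 0.163), and it was -1.02 in litter 4746 and -1.82 in litter 4633. *Cbfa2t2*, a corepressor, had -0.31, the Notch ligand *Dll3* -1.56 and *Hes6*, which promotes neurogenesis, -0.50. *Dll3* was at -2.15 in litter 4633 but 0.61 in litter 4746. Without weights *Dll3* was -0.79 and *Hes6* -0.25, and *Hes6* was -0.10 without *Kat6a*+/- replicate 1. Without weights only 1 of the 15 genes, *Eomes*, had p under 0.05, and the list median was -0.35. The median remained between -0.65 and -0.27 when each library was left out in turn.

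Of 18 tested Notch pathway genes, 2 were higher and 6 lower at an unadjusted p under 0.05, beside 7.28% and 7.16% among all genes. The median was -0.09, but it was 0.05 in litter 4633 and 0.07 in litter 4746. Of the lower genes, *Dll1*, *Dll3* and *Mfng* were also counted in the proneural list. *Hes5*, an effector of Notch in radial glia, was at 54.5, 11.5, 33.8 and 34.4 CPM in *Kat6a*+/+ and at 9.67, 19, 29.4 and 10.8 CPM in *Kat6a*+/- NSPCs, with *Kat6a*+/+ replicate 2 among the low values. Its log2 fold-change was -1.48 (SE 0.45, limma FDR = 0.227), that of the ligand *Dll1* was -0.86 and that of the glycosyltransferase *Mfng* was -1.54. *Mfng* was at -1.93 in litter 4633 and 0.36 in litter 4746, and at -0.28 with sex as a term. Without *Kat6a*+/- replicate 1 *Mfng* was -0.49 and *Dll1* -0.27, and without replicate 4 they were -0.66 and -0.42. The list median varied between -0.12 and 0.078 when each library was left out in turn. None of the 18 passed p 0.05 without weights.

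Of 21 tested neuronal marker genes, 1 was higher and 3 lower at an unadjusted p under 0.05, beside 7.28% and 7.16% among all genes. Without weights 0 were higher and 1 lower. The median was -0.14 and ranged from -0.39 to 0.04 over the fits with 1 library left out. *Tubb3*, the neuronal tubulin, was at 97, 51.9, 70.7 and 67.9 CPM in *Kat6a*+/+ and at 63.9, 52.5, 38 and 32.9 CPM in *Kat6a*+/- NSPCs. The ranges overlapped through *Kat6a*+/+ replicate 2. Its log2 fold-change was -0.63 (SE 0.22, limma FDR = 0.263) and remained -0.63 without weights, but it was -0.26 with litter as a fixed term. *Stmn3* and *Crmp1*, which act on neurites and axons, had -0.56 and -0.54, and *Gap43*, a growth cone protein, had 0.61. Without weights these were -0.39, -0.37 and 0.37, and *Gap43* was as low as 0.14 with 1 library left out.

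Genes of the ventral telencephalon and interneurons had the lowest median of all lists, -0.77 over 14 tested genes. At an unadjusted p under 0.05, 0 were higher and 5 lower, beside 7.28% and 7.16% among all genes, and 2 were lower without weights. These regulators are normally confined to progenitors of inhibitory neurons. *Dlx2* was at 13.3, 2.54, 5.39 and 7.46 CPM in *Kat6a*+/+ and at 1.01, 6.83, 3.47 and 0.0668 CPM in *Kat6a*+/- NSPCs. The spread within each group was wide and the groups overlapped. This was a log2 fold-change of -2.58 (SE 0.72, limma FDR = 0.2), and those of the homeodomain genes *Dlx1* and *Gsx1* and the zinc finger gene *Sp9* were -3.05, -1.82 and -2.56. With litter as a fixed term the list median was -0.05, and with sex as a term it was 0.00.

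Transcription factors of the dorsal telencephalon were closer to the background, with 1 higher and 2 lower of 19 tested. The shares among all genes were 7.28% and 7.16%, and the list median was -0.10. *Emx2*, which patterns the cortex, was at 25.6, 21.8, 24.7 and 28.9 CPM in *Kat6a*+/+ and at 17.1, 19.7, 16.9 and 22.1 CPM in *Kat6a*+/- NSPCs. Only *Kat6a*+/- replicate 4 reached the *Kat6a*+/+ range. In the limma fit the log2 fold-change was -0.47 (SE 0.09, limma FDR = 0.136), with -0.53 and -0.55 in the 2 shared litters. *Bcl11b*, a factor of deep layer neurons, had -1.01 (SE 0.25), *Pax6* of radial glia had 0.16 (SE 0.07) and *Otx1* had -0.27 (SE 0.20).

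Of 13 tested SOX genes, 0 were higher and 4 lower, beside 7.28% and 7.16% among all genes. Estimates of the list were below 0 in 11, with a median of -0.23. *Sox4*, which acts in differentiating neurons, was at 1559, 1008, 1345 and 1430 CPM in *Kat6a*+/+ and at 976, 985, 1320 and 1024 CPM in *Kat6a*+/- NSPCs. The groups overlapped through *Kat6a*+/+ replicate 2 and *Kat6a*+/- replicate 3, and the log2 fold-change was -0.43 (SE 0.14, limma FDR = 0.231). *Sox11* had -0.60 and 0.044 with sex as a term, *Sox12* -0.23 and *Sox21* -0.33. The stem cell factors *Sox1* and *Sox2* had -0.26 (SE 0.31) and -0.13 (SE 0.10). The *Sox1* levels overlapped, at 46.2, 70.2, 44 and 81.8 CPM against 30.2, 45.6, 83.5 and 53.9 CPM. In the MEIS and PBX family of homeodomain cofactors, 3 of 9 were lower and 0 higher. *Meis2* was at 186, 130, 166 and 205 CPM in *Kat6a*+/+ and at 119, 101, 163 and 153 CPM in *Kat6a*+/- NSPCs, a log2 fold-change of -0.44 (SE 0.16, limma FDR = 0.269), and *Pbx3* and *Pknox1* had -0.31 and -0.29. None of the SOX, MEIS and PBX genes passed p 0.05 without weights.

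Markers of radial glia had estimates on both sides of 0. Of 16 tested, 4 were higher and 1 lower, beside 7.28% and 7.16% among all genes, and the median was 0.05. Without weights 0 passed p 0.05 in either direction. *Nes*, the intermediate filament nestin, was at 494, 852, 413 and 739 CPM in *Kat6a*+/+ and at 1091, 1026, 741 and 626 CPM in *Kat6a*+/- NSPCs. *Kat6a*+/+ replicates 2 and 4 overlapped with *Kat6a*+/- replicates 3 and 4. The fit gave a log2 fold-change of 0.82 (SE 0.22, limma FDR = 0.199) and 0.50 without weights. The filament gene *Vim* had 0.45 and the matrix gene *Tnc* 0.69, while *Glul*, the glutamine synthetase of glia, had -0.36.

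Astrocyte markers had 1 higher and 0 lower of 19, *Slc4a4* (a bicarbonate transporter, 0.22), and oligodendrocyte lineage genes had 0 of 15 in either direction. Among all genes 7.28% were higher and 7.16% lower. *Gfap* was at 640, 498, 338 and 698 CPM in *Kat6a*+/+ and at 873, 237, 457 and 345 CPM in *Kat6a*+/- NSPCs. Its log2 fold-change was 0.12 (SE 0.48), with 1.37 in litter 4633 and -1.56 in litter 4746. *Olig2* had -0.09 (SE 0.20). The signs of *Gfap* and *Olig2* turned without weights.

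**Figure D4:**
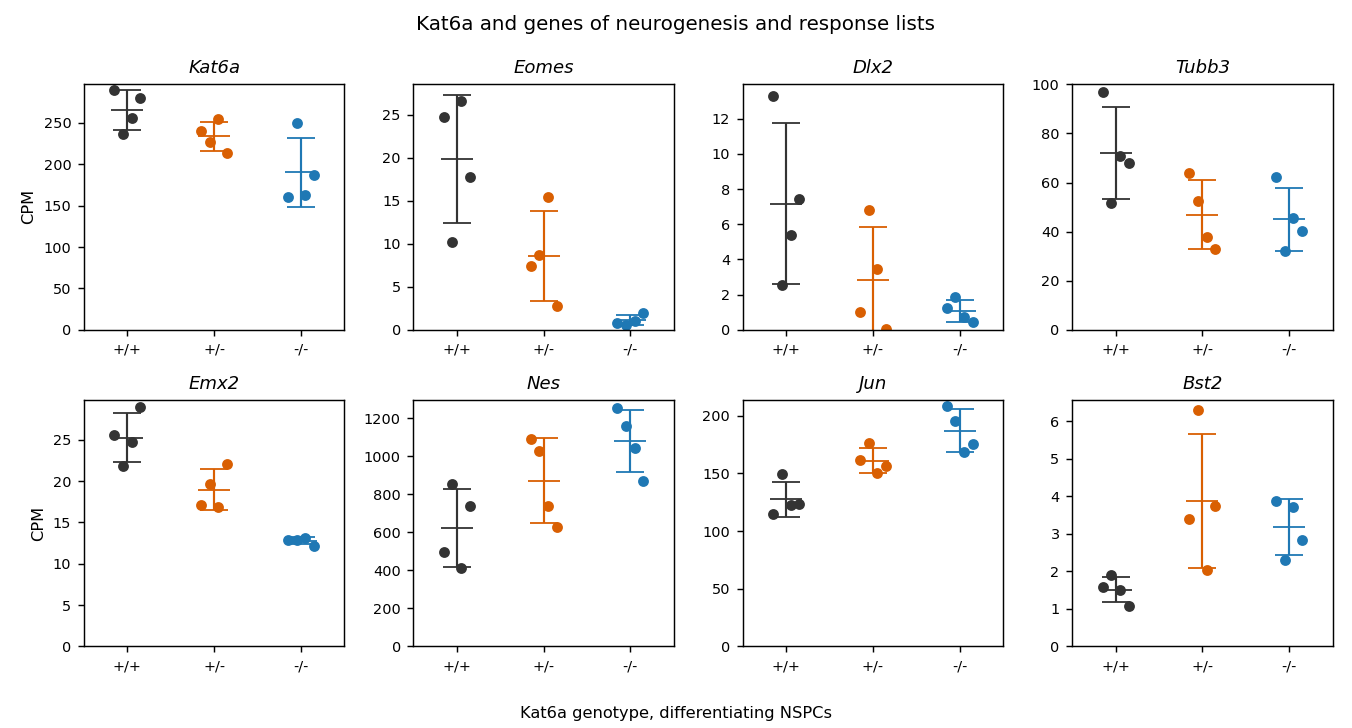
Level in CPM (linear axis from 0) of *Kat6a* and 7 listed genes in *Kat6a*+/+, *Kat6a*+/- and *Kat6a*-/- differentiating NSPCs, with 1 point per library (replicates 1 to 4 from left to right) and the mean ± SD (n = 4). *Eomes*, *Dlx2* and *Tubb3* were lower in estimate in *Kat6a*+/- NSPCs with overlapping groups, and *Jun* and *Bst2* were higher in estimate with separate groups, by a narrow margin in *Jun* (150 CPM in both nearest libraries).

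Several lists held mostly higher estimates. Of 23 tested interferon response genes, 9 were higher and 0 lower at an unadjusted p under 0.05, beside 7.28% higher among all genes, 22 estimates were above 0 and the median was 0.44. *Bst2*, which tethers viruses to the cell surface, was at 1.59, 1.89, 1.49 and 1.08 CPM in *Kat6a*+/+ and at 3.4, 6.3, 2.04 and 3.74 CPM in *Kat6a*+/- NSPCs. All *Kat6a*+/- libraries were higher, and replicate 3 was the closest to *Kat6a*+/+. The log2 fold-change was 1.13 (SE 0.24, limma FDR = 0.16). *Ifitm3* and *Oasl2*, both antiviral effectors, had 0.76 and 1.51. Without weights 4 of the 23 genes had p under 0.05 and the median was 0.36. The medians within litters 4633 and 4746 were 0.54 and 0.52. Of 13 genes of MHC class I presentation, 2 were higher and 0 lower, with a median of 0.04.

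Of 15 immediate early genes, 5 were higher and 1 lower, beside 7.28% and 7.16% among all genes, and the median was 0.40. Without weights 3 were higher and the median was 0.23, and it was as low as 0.17 with 1 library left out (*Kat6a*+/+ replicate 3). *Jun*, a subunit of AP-1, was at 115, 150, 122 and 124 CPM in *Kat6a*+/+ and at 161, 176, 150 and 157 CPM in *Kat6a*+/- NSPCs. Only *Kat6a*+/+ replicate 2 came close to the *Kat6a*+/- libraries. This was a log2 fold-change of 0.40 (SE 0.08, limma FDR = 0.16). *Fosl2*, another AP-1 subunit, had 1.11, with 111 CPM in *Kat6a*+/+ replicate 2 and 37.7 to 44.3 CPM in the other 3, and *Ier3* had 0.96. These genes respond within minutes to growth factors and other stimuli, and their summed level was 409 to 654 CPM in *Kat6a*+/+ and 539 to 724 CPM in *Kat6a*+/- libraries.

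Of 16 genes of FGF receptors and the feedback on ERK signalling, 5 were higher and 0 lower, beside 7.28% and 7.16% among all genes. The median was 0.34, but without weights 1 gene was higher (median 0.45). *Dusp5*, a phosphatase of ERK, was at 3.23, 10.2, 5.78 and 4.29 CPM in *Kat6a*+/+ and at 9.73, 7.76, 10.1 and 20.2 CPM in *Kat6a*+/- NSPCs, with a log2 fold-change of 1.21 (SE 0.32). The groups overlapped through *Kat6a*+/+ replicate 2. The inhibitor *Spred1* and the receptor *Fgfr1* had 0.33 and 0.30. Of 14 targets and members of the YAP and TEAD pathway, 7 were higher and 0 lower (median 0.30, and 3 without weights). *Axl*, a receptor kinase, was at 128, 125, 131 and 138 CPM in *Kat6a*+/+ and at 172, 185, 145 and 128 CPM in *Kat6a*+/- NSPCs (log2 fold-change 0.30, SE 0.08, limma FDR = 0.199). The kinases *Nuak2* and *Lats2* had 0.61 and 0.58.

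Of 31 genes of the extracellular matrix, 6 were higher and 0 lower, beside 7.28% and 7.16% among all genes. Their estimates were above 0 in 28, with a median of 0.42, and 3 genes were higher without weights. *Col12a1*, a fibril-associated collagen, was at 122, 124, 95.9 and 110 CPM in *Kat6a*+/+ and at 158, 245, 171 and 137 CPM in *Kat6a*+/- NSPCs. The groups were apart, and the log2 fold-change was 0.59 (SE 0.15, limma FDR = 0.199). *Col6a1* had 1.85 and the laminin gene *Lamb1* 0.99. Matrix genes are also expressed by mesenchymal and meningeal cells. Of the markers of such cells, 2 of 11 tested genes were higher, among them *Foxc1* (0.48), and the summed level of the list was 704, 1047, 687 and 693 CPM in *Kat6a*+/+ replicates 1 to 4, against 787, 2218, 853 and 424 CPM in *Kat6a*+/- replicates 1 to 4. *Twist2* and *Aldh1a2* of this list were at 0 in all 8 libraries. Without *Kat6a*+/- replicate 2, the library with the highest sum, the median of the matrix list was 0.34. The part of such cells in the matrix values was not tested. Of the endothelial list 4 of 12 genes could be tested and of the microglial list 1 of 14, and *Cldn5*, *Tie1*, *Cx3cr1*, *Trem2*, *Tyrobp*, *Itgam* and the *C1q* genes were at 0 in all 8 libraries.

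Without *Kat6a*+/+ replicates 1 and 2, the libraries with doubtful embryo labels, the medians were 0.53 for the interferon list, 0.38 for immediate early genes, 0.28 for YAP and TEAD genes and 0.65 for the matrix list. They were -0.48 for proneural genes, -0.49 for ventral genes and -0.22 for SOX genes, so that the direction of these 7 medians was the same. Other medians turned from below to above 0, namely those of G2 and M phase genes (0.15) and clustered protocadherins (0.036). Ion channel and transmitter receptor genes (0.0087) and HOX and TBX genes (0.0098) turned as well.

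**Figure D5:**
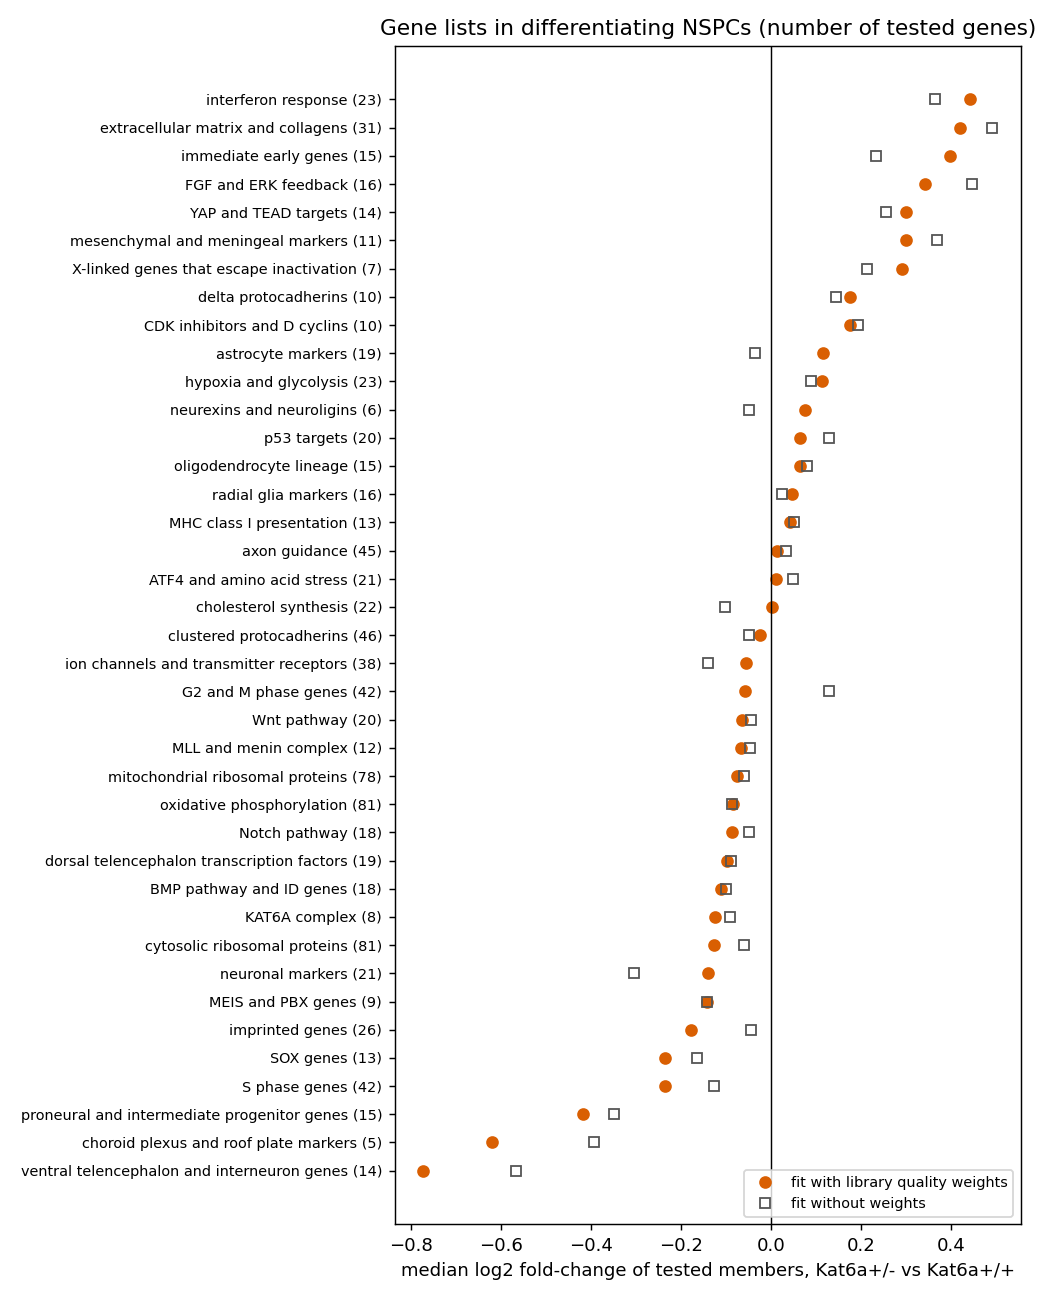
Median log2 fold-change of the tested members of each gene list (rows, with the number of tested genes), in *Kat6a*+/- vs. *Kat6a*+/+ differentiating NSPCs, with library quality weights (filled circles) and without them (open squares). The interferon list had the highest median with weights (0.44) and the ventral telencephalon list the lowest (-0.77), and the list of G2 and M phase genes was on opposite sides of 0 (-0.06 and 0.13).

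Cell cycle genes differed between the shared litters. Of 42 S phase genes, 0 were higher and 3 lower, a share near the 7.16% of all genes, 41 estimates were below 0, and the median was -0.24, but it was -0.51 in litter 4633 and 0.49 in litter 4746, and -0.01 with litter as a fixed term. *Slbp*, the binding protein of histone mRNA, was at 40.3, 35.9, 42.6 and 37.2 CPM in *Kat6a*+/+ and at 26.6, 34.1, 37.9 and 30.1 CPM in *Kat6a*+/- NSPCs, a log2 fold-change of -0.42 (SE 0.10, limma FDR = 0.163), and the histone chaperone gene *Nasp* had -0.36. None of 42 G2 and M phase genes passed p 0.05. *Mki67* was at 245, 214, 269 and 144 CPM in *Kat6a*+/+ and at 211, 258, 298 and 174 CPM in *Kat6a*+/- NSPCs, a log2 fold-change of -0.05 (SE 0.25) whose sign turned without weights. Of 10 CDK inhibitors and D cyclins, 4 were higher and 2 lower, beside 7.28% and 7.16% among all genes. Without weights 1 was higher and 0 lower. The list median was 0.18, but it was -0.18 in litter 4633 and 0.68 in litter 4746. *Cdkn2b*, which blocks CDK4 and CDK6, was at 20.6, 25.6, 16.2 and 21.8 CPM and at 34.4, 31.4, 19.2 and 30.7 CPM (log2 fold-change 0.61, SE 0.17, limma FDR = 0.2). *Cdkn2a* and *Ccnd1* had 0.85 and 1.24, and *Cdkn1b* had -0.20. *Ccnd1* was at 165 CPM in *Kat6a*+/- replicate 2 and at 36.6 to 54.9 CPM in the other 3.

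All 8 tested genes of the KAT6A complex had estimates below 0, with a median of -0.13. At an unadjusted p under 0.05, 3 were lower, beside 7.16% among all genes. These were *Kat6a*, the scaffold gene *Brpf3* (-0.14, SE 0.05) and *Meaf6* (-0.22, SE 0.10), and none was lower at that level without weights. The paralog *Kat6b* had -0.11 (SE 0.06). *Brpf3* was at 48.4, 49.7, 48.9 and 50 CPM in *Kat6a*+/+ and at 44.2, 47.1, 47.2 and 40.2 CPM in *Kat6a*+/- NSPCs, without overlap. Of the 12 genes listed for menin and the MLL family of histone methyltransferase complexes, none passed p 0.05, and *Kmt2a* had 0.17 (SE 0.09).

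Ribosomal protein genes had small estimates that were mostly below 0. Of 81 cytosolic ribosomal protein genes, 0 were higher and 9 lower, beside 7.16% lower among all genes. Their estimates were below 0 in 75, and the median was -0.13. *Rpl15* was at 56.2, 47.1, 55.8 and 54.5 CPM in *Kat6a*+/+ and at 47, 47.3, 46.7 and 49.4 CPM in *Kat6a*+/- NSPCs (log2 fold-change -0.21, SE 0.06), where *Kat6a*+/+ replicate 2 was level with the *Kat6a*+/- libraries. *Rpl41* had -0.43. The median was 0.05 with sex as a term, and 1 gene was lower without weights. Ribosomal protein genes have many near-identical copies, which makes their counts less certain. Of 78 mitochondrial ribosomal protein genes 1 was higher, *Mrpl10* (0.24), and 9 were lower, with 61 estimates below 0 and a median of -0.08. Of 81 genes of oxidative phosphorylation 0 were higher and 5 lower, such as *Ndufa12* (-0.22), a share near the 7.16% of all genes. The median of that list was -0.08.

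Several other signalling and neural lists held genes with p under 0.05 in both directions, beside 7.28% higher and 7.16% lower among all genes. Of 18 genes of the BMP pathway 2 were higher and 3 lower. The ligand *Bmp2* was at 0.219, 0.0541, 0.241 and 0.0833 CPM in *Kat6a*+/+ and at 0.597, 0.265, 0.386 and 0.802 CPM in *Kat6a*+/- NSPCs. The groups were apart at very low levels (log2 fold-change 1.10, SE 0.35). The ligand *Bmp6* had 1.12, and the effectors *Smad9* and *Id2* had -0.35 and -0.38. Of 20 Wnt pathway genes 2 were higher and 3 lower, among them the antagonists *Nkd1* (-0.51) and *Sfrp2* (-0.93). Of 45 axon guidance genes 3 were higher and 5 lower. The semaphorin receptor *Plxnd1* had 0.97, the semaphorin *Sema4d* 0.66, and the ephrin receptors *Ephb1* and *Epha3* had -0.55 and -0.87. Of 38 ion channel and transmitter receptor genes 4 were higher and 4 lower, including *Scn2a* (0.60), *Grm5* (0.35), *Gabrb2* (1.43) and *Kcnc1* (-0.33). Of 46 clustered protocadherins 3 were higher, among them *Pcdhgc5* (1.22), and 4 were lower. Their estimates were above 0 in 22 and below 0 in 24, with a median of -0.02.

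Of 26 imprinted genes, which are expressed from 1 parental allele, 1 was higher (*Ndn*) and 5 were lower, with a median of -0.18. The shares among all genes were 7.28% higher and 7.16% lower. Without weights 2 were lower and the median was -0.043, and it was -0.048 with sex as a term and -0.026 without *Kat6a*+/- replicate 1. *Peg3*, a zinc finger gene, was at 373, 419, 572 and 424 CPM in *Kat6a*+/+ and at 357, 298, 343 and 312 CPM in *Kat6a*+/- NSPCs. The groups were apart (log2 fold-change -0.40, SE 0.15, limma FDR = 0.279). Its neighbour *Usp29* was at 7.67, 6.22, 10.4 and 8.16 CPM and at 5.07, 5.04, 5.95 and 2.87 CPM (log2 fold-change -0.82, SE 0.22), again without overlap. *Peg10* had -0.47, with -0.70 in litter 4633 and 0.19 in litter 4746, -0.0049 with sex as a term and -0.18 without *Kat6a*+/- replicate 1. Of 23 genes of hypoxia and glycolysis 3 were higher and 1 lower, among them the peptide hormone *Adm* (1.63) and the phosphofructokinase *Pfkp* (0.71). Lists of p53 targets, cholesterol synthesis, ATF4 targets, delta protocadherins and neurexins had medians of 0.06, 0.00, 0.01, 0.18 and 0.08. Of the HOX and TBX genes 3 could be tested and 0 passed p 0.05, and the 5 tested choroid plexus markers had a median of -0.62 and none passed. That median was -0.19 without *Kat6a*+/- replicate 4, -0.17 with sex as a term and 0.050 with litter as a fixed term.

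X-linked genes that escape inactivation followed the sex of the libraries. All 7 tested had estimates above 0, 4 of them at an unadjusted p under 0.05, beside 7.28% higher among all genes. Their median was 0.29, but it was 0.03 with sex as a term. *Eif2s3x*, a subunit of a translation initiation factor, was at 94, 137, 95.5 and 95.1 CPM in *Kat6a*+/+ and at 144, 89.5, 142 and 151 CPM in *Kat6a*+/- NSPCs, so that the 4 female libraries were high in both groups. Its log2 fold-change was 0.47 (SE 0.18) and -0.043 with sex as a term. The histone demethylase gene *Kdm5c* had 0.43 and -0.031, and *Utp14a* had 0.21. With sex as a term in the fit, 2784 genes had p under 0.05 and none had FDR under 0.05.

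Whether the heterozygous effect differed between culture conditions was tested as an interaction over all 24 libraries, with proliferating NSPCs kept in growth factors as the other condition. The RNA kit differed between the conditions, so kit and condition cannot be told apart. Litter was the block of this fit, and pairing of libraries by embryo between conditions was not modelled. No gene of 13586 reached FDR under 0.05 by limma-voom (0%), the smallest FDR was 1.00, and 412 genes had an unadjusted p under 0.05; edgeR called 0, with 429. The genes with the smallest p-values were *Uaca*, *Atp10a* and *Igf2bp2*, with interaction estimates of 0.74, 0.90 and 1.01 on the log2 scale. *Uaca*, a regulator of apoptosis, was at 45.4, 56.3, 46.1 and 43.9 CPM in *Kat6a*+/+ and at 61.5, 73.6, 57.1 and 67.6 CPM in *Kat6a*+/- differentiating NSPCs, where the groups were apart (log2 fold-change 0.45, SE 0.09, limma FDR = 0.136). In the fit over both conditions it had 0.44 in differentiating and -0.30 in proliferating NSPCs. *Atp10a*, a lipid flippase, had 0.73 and -0.17, and *Igf2bp2*, an RNA-binding protein of progenitors, had 0.28 and -0.72.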

How the data were processed

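The authors aligned the reads to the mouse genome (mm39) with Rsubread, assigned them to genes with featureCounts and a strict RefSeq annotation, and deposited raw counts per gene for each library. Versions of these tools and the strand setting of the counting were not given in the sources used here, so overlapping genes on opposite strands carry some uncertainty. Biotypes came from a table of RefSeq genes, joined on the Entrez identifier: of 26411 genes 21030 were protein-coding, and 52 without a biotype were left out. GENCODE gave mm39 positions, joined on the symbol, for 13276 of the tested genes.

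The design followed the tool and terms that the study states, but its exact filtered gene set could not be matched. Protein-coding genes that passed filterByExpr were kept, *Xist* and Y-unique genes were left out, and the 12 differentiating libraries of 3 genotypes were fitted with limma-trend (limma 3.58.1) on log2 CPM (TMM scaling by edgeR 4.0.16, prior count 2), with arrayWeights quality weights and robust empirical Bayes moderation. A gene was called at a Benjamini-Hochberg FDR under 0.05. CPM values in the text are scaled by TMM. The interaction was fitted on 24 libraries with limma-voom and a random litter block (correlation within litters 0.00363). DESeq2 1.42.0 and the edgeR quasi-likelihood test were alternatives, as were other scalings, filters, terms for litter and sex, a replicate block and fits that left out libraries. The fit was tested on simulated counts of 13250 genes, where it made 5 false calls. Replicates differed by more than counting noise (lowest chi-square per degree of freedom 8.34). Labels name the embryo of each library, so p-values measure the spread between embryos of few litters.

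Genes named in the text were a set of regulators and markers, the 6 higher and 6 lower genes with the smallest p, the 4 largest and 4 smallest estimates among genes with p under 0.05, a mean log2 CPM above 1 and groups that did not overlap, up to 4 genes with the smallest p in each of 42 gene lists, and the 3 smallest p of the interaction; predicted genes were passed over, and 2 genes that this rule names are not reported here. Genes at FDR under 0.05 in an alternative were named besides. The members, lists and this rule were chosen with earlier results of these data known, and no test was made of a list as a whole. Promoter sequences came from RefSeq (GRCm38.p6).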

Additional observations from a re-analysis of the deposited data

Results flagged for a closer look

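In a group of 4 libraries, a library was singled out when its gap to the nearest other library was a larger part of the whole range of the group than Dixon's critical value allows. This held in 19 of 314 group tests over the named genes, the list sums and the library measures, and chance alone gives about 1 in 20.

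*Kat6a*+/+ replicate 2 stood apart most often. On the log2(CPM + 1) scale it was high for *Itprid2* (7.53), *Fosl2* (6.81), *Eif2s3x* (7.11) and *Kdm5c* (8.05), and low for *Rundc3a* (5.83) and *Peg10* (9.29). Its log2 summed CPM was high for immediate early genes (9.35), extracellular matrix genes (13.1), X-linked genes that escape inactivation (10.1) and mesenchymal and meningeal markers (10.0), and its share of protein-coding counts was low, at 98.4%. Its *Xist* level was 1516 CPM, against 0.127 to 0.694 CPM in the other *Kat6a*+/+ libraries.

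*Kat6a*+/- replicate 3 was high for *Sox2* (8.93) and *Sox4* (10.4) and for the summed SOX genes (11.6), and low for *Oasl2* (0.288) and *Ier3* (4.42). *Kat6a*+/- replicate 2, the single male library of its group, was low for *Eif2s3x* (6.50) and for the summed clustered protocadherins (10.2), and high for *Arl4c* (7.88).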

How the results depend on the processing

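Results of the contrast were recomputed under each alternative that kept the gene, and the interaction under those made for it. The number of genes at FDR under 0.05 was 0 except for DESeq2 (8), no low-count filter (1, *Klhl41*, which had too few counts to be tested otherwise), and the fits without 1 library, where it ranged from 0 to 301. It was 4 without *Kat6a*+/+ replicates 1 and 2 together, an alternative chosen after seeing the data, and 0 with the replicate block. At an unadjusted p under 0.05 the number was 472 without quality weights, 485 by edgeR, 628 by DESeq2, 891 with litter as a fixed term and 2784 with sex as a term, and ranged from 892 to 3192 without 1 library. The share of these genes that was higher was 50.4% with TMM scaling, 36.1% when scaled by library totals, 62.3% by DESeq2 and 61.6% with litter as a fixed term, and 61.1% without *Kat6a*-/- replicate 2. Why these shares differ was not tested.

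The interaction had 0 calls under each setting but voom with quality weights (1, *Uaca*) and without *Kat6a*+/+ differentiating replicate 2 (1, *Slf2*); over the fits without 1 library the number ranged from 0 to 1.

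Replicate numbers did not pair the libraries: deviations of same-numbered *Kat6a*+/+ and *Kat6a*+/- libraries correlated at -0.03, 0.03, -0.23 and -0.11, and they came from different litters. With the replicate block 1338 genes had p under 0.05, and the interaction with the replicate block had 0 calls at FDR under 0.05. No calls were gained or lost under the block.

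Of 112 genes in the text, the log2 fold-change moved by over 1.5 times in 20 without weights, in 40 with sex as a term and in 44 when 1 library or another was left out, and 13 had opposite signs in the 2 shared litters. Directions turned for 7 named genes. *Gfap* was -0.30 without weights, -0.19 by edgeR, -0.18 by DESeq2, -0.10 with litter as a fixed term and -0.88 with sex as a term. *Mki67* was 0.12, 0.11, 0.12 and 0.25 under the first 4 of these and 0.19 without *Kat6a*+/+ replicates 1 and 2. *Olig2* was 0.18, 0.20 and 0.21 under the first 3, and 0.070 without these 2 libraries. With sex as a term *Sox11* was 0.044, *Eif2s3x* -0.043 and *Kdm5c* -0.031. When 1 library was left out, values ranged from -0.59 to 0.33 for *Sox1*, from -0.50 to 0.48 for *Gfap*, from -0.19 to 0.16 for *Mki67* and from -0.29 to 0.27 for *Olig2*.

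In counts simulated at this depth and group size, the fit found 26.9% of 1.5-fold, 70.1% of 2-fold and 89.2% of 4-fold changes. The simulation held no differences of sex, litter or quality between libraries.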
